A study of Mus musculus with 9 samples.

Results

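Transcripts of 9 complement components and receptors were followed in primary mouse microglia treated with R848, IFN-α or both. The genes were taken by symbol from the deposited count tables, where all 9 were found among 24411 genes, and all 9 passed the filter on low counts that left 11002 genes for testing. They encode the recognition chains C1qa, C1qb and C1qc, the cascade components C3, C4b and Cfb, the receptors C3ar1 and C5ar1, and the inhibitor Serping1.

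Complement is a cascade of plasma and tissue proteins that marks targets for clearance by phagocytes. The classical pathway starts when C1q binds a target and its partner proteases cleave C4 and C2, while the alternative pathway builds its own C3-cleaving enzyme from C3 and factor B. Cleavage of C3 and C5 releases the peptides C3a and C5a, which act on cells through the receptors encoded by C3ar1 and C5ar1, and C1 inhibitor, encoded by Serping1, blocks the proteases at the head of the classical pathway. Microglia, the resident macrophages of the brain, are a main source of brain C1q and carry both peptide receptors, and complement in the brain is known for tagging synapses that microglia remove.

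Glia were grown from whole brains of 3-day-old ICR mice, an outbred stock, and microglia were shaken off the mixed culture and plated before treatment. Each of 3 groups had 3 RNA sequencing libraries made after 4 h: 1 µM R848 (resiquimod), which activates the endosomal sensor TLR7 in mice; 100 U/ml IFN-α, a type I interferon; or both agents, called the combined group. The labels name no genetic change and tie no library to an animal. Untreated control cells, which the study's design mentions, are not analysed here, so every difference below lies between stimulated groups, and the comparisons share libraries. The labels do not say whether the libraries came from separate cultures, so the p-values reflect library-to-library spread that may be technical.

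Counts assigned to genes ranged from 2505941 to 6005578 per library, with replicate 3 of the combined group the deepest. Levels are given in CPM, the standard depth-scaled count, on library totals scaled by edgeR's TMM factors, which ran from 0.832 to 0.892 in the combined group and from 0.954 to 1.17 in the others. Detected here means any count above 0 in a group. All 12 listed microglial markers were detected in the R848 and IFN-α groups, and 11 were in the combined group, where Siglech was at 0. Some were near the floor: Siglech had 7 counts over the R848 group and 3 over the IFN-α group. Tmem119 averaged 0.391 CPM with both agents, and P2ry12 averaged 2.40 CPM with R848. Their summed level was 2147 to 2563 CPM with R848, 3406 to 3646 CPM with IFN-α and 2185 to 2536 CPM with both. The preparation also held astrocyte transcripts: the 12 listed astrocyte markers summed to 1454 to 1708, 1160 to 1466 and 2386 to 3430 CPM in the same order of groups, all 12 were detected in each group, and the combined mean was 1.76 times that of R848 and 2.17 times that of IFN-α. Gfap and Aqp4 made up most of this combined mean of 2792 CPM, at 1411 and 1043 CPM. The 8 oligodendrocyte markers summed to 426 to 549 CPM and the 6 neuronal markers to 98.4 to 126 CPM over all libraries. The 8 fibroblast markers ran from 108 to 249 CPM, the 6 endothelial markers from 17.0 to 65.1 CPM with Cldn5 at 0 in the IFN-α and combined groups, and the 7 measured markers of other leukocytes from 5.05 to 15.1 CPM with Cd79a and S100a9 at 0 in every group. The part of these cells in the results below was not tested, and in bulk RNA fewer cells of a type and less RNA per cell cannot be told apart.

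All 9 members lie on the minus strand of the GRCm38 assembly. The C1q genes are neighbours, with C1qb at chr4:136880129-136886187, C1qc at chr4:136889804-136893065 and C1qa at chr4:136895917-136898803. C4b at chr17:34728380-34743882 and Cfb at chr17:34856374-34862518 lie near each other, and C3 lies apart on the same chromosome at chr17:57203970-57228136. C3ar1 is at chr6:122847138-122856161, C5ar1 at chr7:16246743-16259540 and Serping1 at chr2:84765387-84775444. All are annotated as protein-coding.

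Sequences of the 250 bases before the start site were taken from RefSeq (GRCm38.p6), whose promoter table matched 5 of the 9 members, C1qb, C1qc, C3, C3ar1 and C5ar1. C3, which had the highest fold change of any member, and both receptors, which ordered the groups differently, are shown as chr17:57228137-57228386, chr6:122856158-122856407 and chr7:16259339-16259588, minus strand, 5′ to 3′. The receptor sequences were added after their values were seen. Capitals mark motif matches.
C3: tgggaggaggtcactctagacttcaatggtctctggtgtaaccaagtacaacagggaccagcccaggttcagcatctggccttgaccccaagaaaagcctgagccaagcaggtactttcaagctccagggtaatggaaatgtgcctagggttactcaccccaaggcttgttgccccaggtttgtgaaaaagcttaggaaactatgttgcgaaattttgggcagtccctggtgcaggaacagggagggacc
C3ar1: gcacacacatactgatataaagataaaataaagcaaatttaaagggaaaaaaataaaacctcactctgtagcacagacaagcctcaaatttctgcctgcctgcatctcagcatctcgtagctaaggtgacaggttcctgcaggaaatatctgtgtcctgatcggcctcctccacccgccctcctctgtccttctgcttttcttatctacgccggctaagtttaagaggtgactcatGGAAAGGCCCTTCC
C5ar1: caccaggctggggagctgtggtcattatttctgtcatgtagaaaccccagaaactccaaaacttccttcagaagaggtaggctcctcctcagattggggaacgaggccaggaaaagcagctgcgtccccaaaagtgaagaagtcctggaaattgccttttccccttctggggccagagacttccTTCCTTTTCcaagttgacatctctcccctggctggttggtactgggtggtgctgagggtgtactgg
The motifs searched on both strands were GAAANNGAA, a core of the interferon-stimulated response element; TTCNNNGAA, the palindromic GAS element; and GGNNNTTCC, a core of the NF-κB site. They occurred in 7.13%, 7.02% and 15.7% of 32851 promoter windows of this length. C3ar1 held GGCCCTTCC 9 to 1 bases before its start and GGAAAGGCC 14 to 6 bases before it, which overlap and are NF-κB core matches on the gene's own and on the other strand. C5ar1 held TTCCTTTTC, a match to the interferon element core on the other strand, 66 to 58 bases before its start. C3, C1qb and C1qc held none of the 3 motifs in these windows. The C1qc, C3ar1 and C5ar1 windows partly overlap the GENCODE gene, whose start lies upstream of the RefSeq one. The C5ar1 match lies inside the GENCODE gene, as do the last bases of the GGCCCTTCC match of C3ar1.

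Complement transcripts differed between treatments in every member, and the members are described here as 3 sets. The C1q chains were highest with IFN-α alone. C3, Cfb, C4b, Serping1 and C3ar1 were highest with both agents. Between the single agents C3 was higher with R848, and the others of this set were higher with IFN-α. C5ar1 was low with IFN-α alone and at several times that level in either group that received R848. Its mean was also highest with both agents under TMM scaling. All 9 differed among the 3 groups by edgeR's quasi-likelihood F test at an adjusted p under 0.05, against 50.3% of all genes tested.

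**Figure D1:**
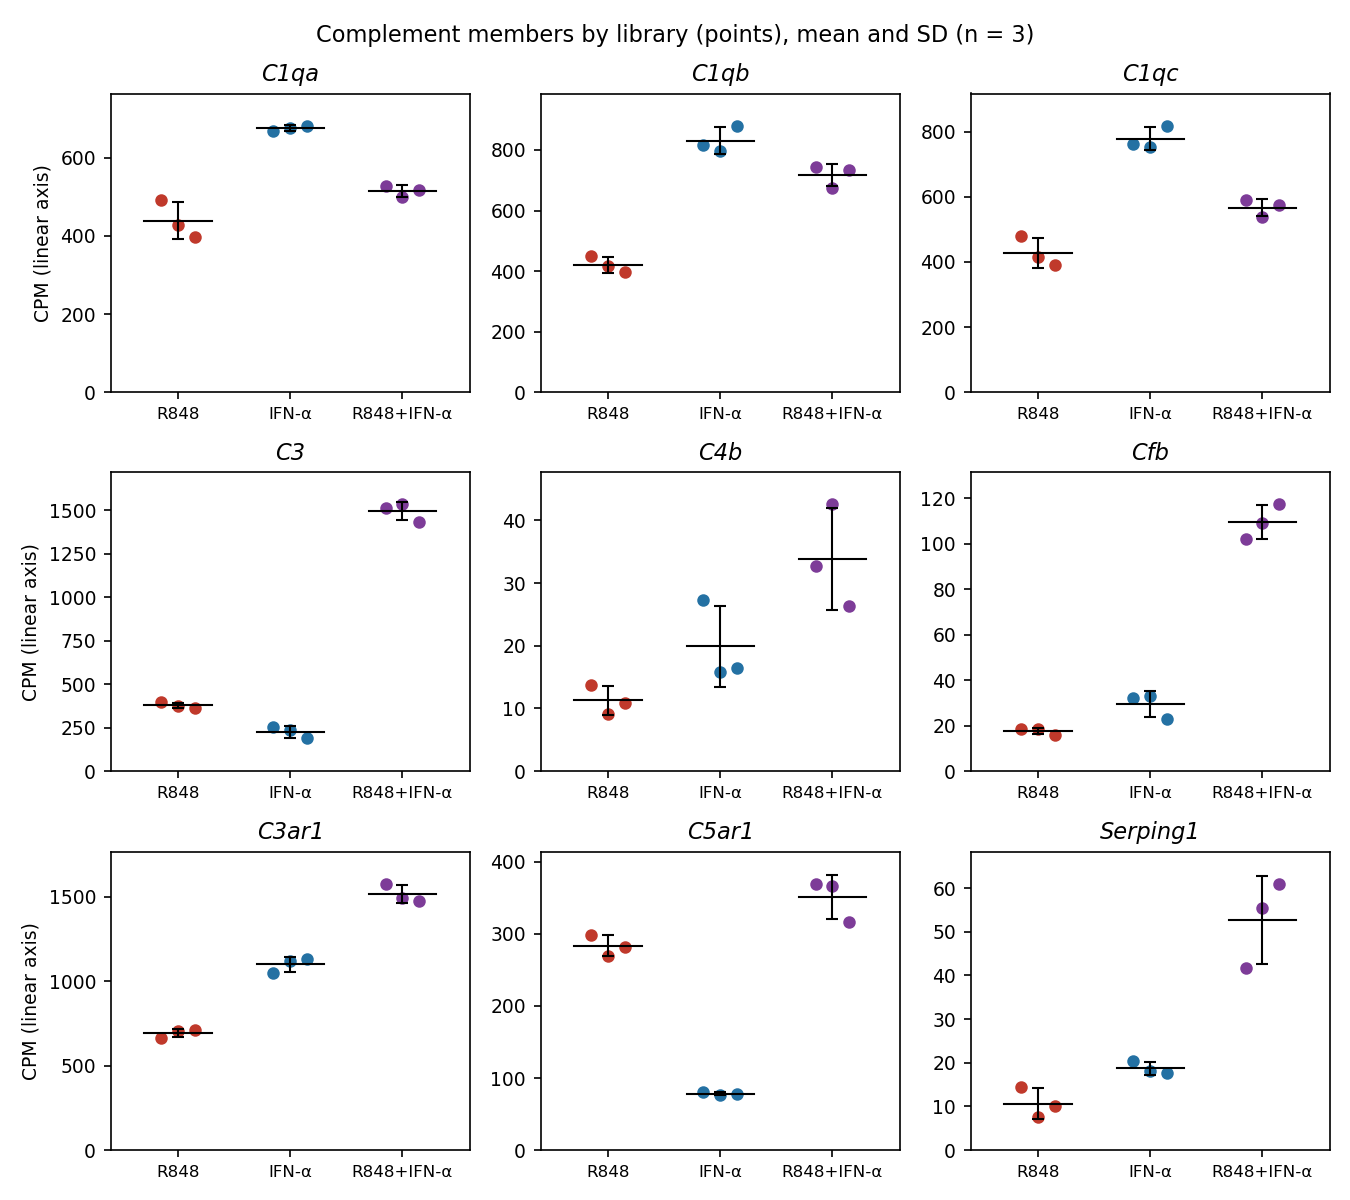
Level of each of the 9 complement members in CPM on linear axes that start at 0, one panel per gene. Points are the 3 libraries of each group, horizontal lines the mean and error bars the SD; the C1q panels peak with IFN-α, C5ar1 is near 78.6 CPM with IFN-α, and C3 stands near 1493 CPM with both agents.

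The first comparison asks how a TLR7 agonist and a type I interferon differ. With R848, 2 members were higher and 7 lower than with IFN-α, with a median log2 fold change over the members of -0.73 against 0.024 over all genes tested. Of all genes tested, 18.4% were higher and 19% lower. The higher members were C3 and C5ar1, and the lower ones were the 3 C1q chains, C4b, Cfb, C3ar1 and Serping1. The other comparisons ask what each agent added in the presence of the other. Against R848 alone, all 9 members were higher in the combined group, except that C1qa and C5ar1 turned slightly lower with library totals alone in place of TMM scaling, with a median of 1.13 against -0.033 over all genes, while 19.2% of all genes were higher and 16.7% lower. Against IFN-α alone, 6 members were higher and the 3 C1q chains lower, with a median of 0.74 against -0.0090, while 18.5% of all genes were higher and 14.7% lower.

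C3, C4b, Cfb, C3ar1, C5ar1 and Serping1 were higher in the combined group than in each single-agent group. This was tested on the larger of both p-values for each gene and held for 6 of 9 members against 7.33% of all genes. No member was below both, against 2.82% of all genes. Leaving out each library in turn gave 4 to 6 members above both. With library totals alone in place of TMM scaling the median of all genes moved to -0.42 against R848 and -0.32 against IFN-α, and 3 members, C3, Cfb and Serping1, remained above both.

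**Figure D2:**
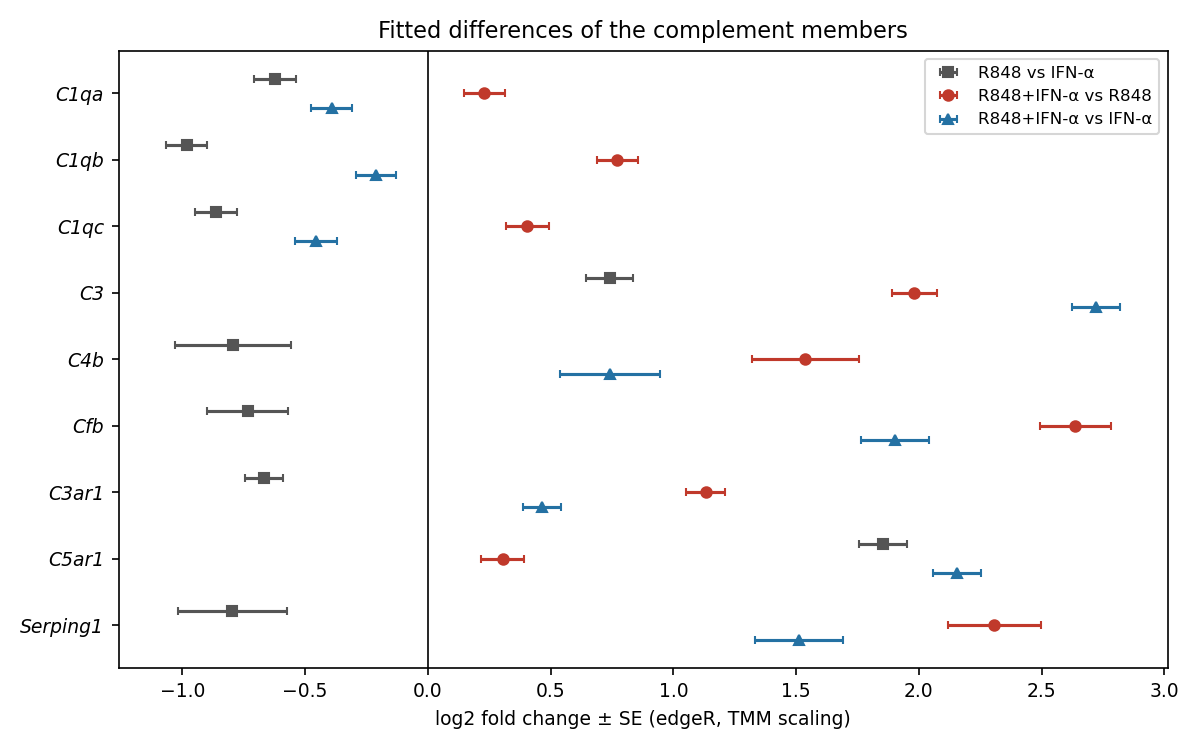
Fitted log2 fold change of each member with its SE in the 3 comparisons, from edgeR with TMM scaling. Values right of 0 are higher in the group named first; C3, Cfb and Serping1 lie furthest right for the combined group against R848, and the C1q chains lie left of 0 against IFN-α.

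C1q is built from the products of C1qa, C1qb and C1qc, and all 3 were among the most abundant transcripts of these preparations. With IFN-α, C1qb ranked 25, C1qa 28 and C1qc 46 of 23334 genes by CPM per kilobase of exon. Per length the mean levels with IFN-α were 763 ± 41.1 CPM per kb for C1qb, 649.8 ± 6.98 for C1qa and 402.9 ± 18.4 for C1qc (SD, n = 3). Each chain was lowest with R848, intermediate with both agents and highest with IFN-α, an order that for C1qa turned between R848 and both agents with library totals alone, and the summed level of the chains was 1287 ± 121, 1799 ± 78.4 and 2284 ± 85.2 CPM in that order (SD, n = 3).

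C1qa, the A chain, was at 491.4, 427.3 and 398.0 CPM with R848, at 668.0, 676.9 and 682.4 CPM with IFN-α, and at 527.1, 499.0 and 518.5 CPM with both. The groups did not overlap, although the highest R848 library came close to the lowest combined one. C1qa was 1.54-fold lower with R848 than with IFN-α (log2 fold change -0.62 ± 0.085 SE, adjusted p = 4.09e-07, edgeR) and fell between them with both agents. Its difference from IFN-α alone was -0.39 ± 0.085 on the log2 scale (adjusted p = 4.78e-04, edgeR). The combined group was higher than R848 by 0.23 ± 0.085 (adjusted p = 0.0341, edgeR), a call that 8 of 20 alternative settings did not keep; with library totals alone the sign turned to -0.15 (adjusted p = 0.308), and without R848 replicate 3 the adjusted p was 0.181.

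C1qb, the B chain, was at 449.9, 416.0 and 395.6 CPM with R848, at 815.3, 795.5 and 880.9 CPM with IFN-α, and at 743.5, 674.8 and 733.7 CPM with both. The R848 libraries lay far below the others, and the combined libraries sat just below the IFN-α ones. C1qb was 1.98-fold lower with R848 than with IFN-α (-0.98 ± 0.083, adjusted p = 2.80e-11, edgeR) and 1.71-fold higher with both agents than with R848 (adjusted p = 6.42e-09). Its shortfall against IFN-α alone was -0.21 ± 0.082 (adjusted p = 0.0474), which passed in 9 of 20 alternative settings; the adjusted p was 0.202 without IFN-α replicate 3, 0.196 without combined replicate 2 and 0.0550 with the replicate number as a block.

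C1qc, the C chain, was at 479.0, 414.7 and 390.6 CPM with R848, at 761.3, 754.0 and 818.8 CPM with IFN-α, and at 589.2, 536.8 and 574.4 CPM with both. No group overlapped another. C1qc was 1.82-fold lower with R848 than with IFN-α (-0.86 ± 0.087, adjusted p = 1.06e-09, edgeR), 1.32-fold higher with both agents than with R848 (adjusted p = 3.96e-04), and 1.37-fold lower with both than with IFN-α (adjusted p = 8.78e-05). With library totals alone the difference from R848 was 0.023 (adjusted p = 0.891).

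The chains did not move in equal measure. Ratios of counts within a library do not depend on how libraries are scaled, and 6 such ratios, chosen after the data were seen, were compared among groups with an exact permutation test over 1680 assignments of the libraries, whose smallest possible p is 0.00357. Per length, C1qb to C1qa was 0.919 ± 0.039 with R848, 1.17 ± 0.056 with IFN-α and 1.33 ± 0.033 with both (SD, n = 3; exact p = 0.00357, 0.00536 after Benjamini-Hochberg adjustment). It went from 0.875, 0.931 and 0.950 in the R848 libraries to 1.35, 1.29 and 1.35 in the combined ones, without overlap with the IFN-α libraries between them. C1qb to C1qc was 1.75 ± 0.071, 1.89 ± 0.019 and 2.25 ± 0.019 in the same order of groups (exact p = 0.00357, adjusted 0.00536). C1qc to C1qa ran from 0.525 ± 0.0030 with R848 to 0.620 ± 0.024 with IFN-α and 0.593 ± 0.012 with both, with overlap between the last groups (exact p = 0.00714, adjusted 0.00857). The fold changes of the chains had already been seen to differ, so these p-values are a description only.

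**Figure D3:**
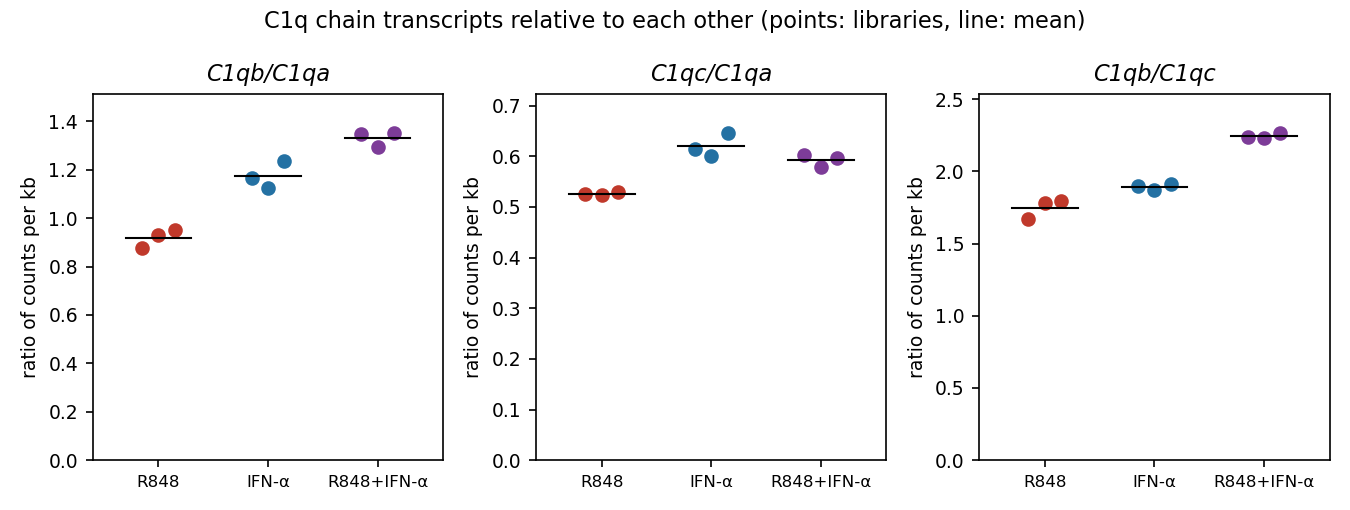
Ratio of counts per kilobase of exon between C1q chains in each library, one panel per pair, on linear axes from 0. Points are libraries and lines group means; C1qb to C1qa is lowest with R848 (0.919) and highest with both agents (1.33).

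Some microglial markers also differed between these groups. Of 11 tested, 1 was higher and 6 lower with R848 than with IFN-α, beside 18.4% and 19% of all genes. With both agents against R848, 3 were higher and 4 lower, beside 19.2% and 16.7%. With both against IFN-α, 1 was higher and 7 lower, beside 18.5% and 14.7%. The summed C1q level and the summed marker level were both highest with IFN-α, and the part of the one in the other was not tested.

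Among cascade components, C3, the protein on which all pathways converge, showed the largest fold change of any member in any comparison. C3 was at 395.5, 375.3 and 362.9 CPM with R848, at 252.1, 239.3 and 188.3 CPM with IFN-α, and at 1513, 1532 and 1434 CPM with both. The combined libraries stood far above all others, and the R848 libraries above the IFN-α ones. With both agents C3 was 3.95-fold above R848 (1.98 ± 0.093, adjusted p = 2.49e-17, edgeR) and 6.60-fold above IFN-α (2.72 ± 0.097, adjusted p = 4.19e-20), while R848 was 1.67-fold above IFN-α (0.74 ± 0.094, adjusted p = 1.16e-07). By CPM per kilobase C3 ranked 398 with R848, 727 with IFN-α and 130 with both. These calls held in all 20 alternative settings.

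Cfb encodes factor B, the protease that joins C3b in the alternative pathway's convertase. It was at 18.4, 18.6 and 15.9 CPM with R848, at 32.4, 33.2 and 23.1 CPM with IFN-α, and at 102.2, 109.2 and 117.3 CPM with both. No group overlapped another. With both agents Cfb was 6.22-fold above R848 (2.64 ± 0.14, adjusted p = 1.19e-15, edgeR) and 3.74-fold above IFN-α (1.90 ± 0.14, adjusted p = 1.38e-12), and R848 was 1.66-fold below IFN-α (-0.73 ± 0.17, adjusted p = 6.02e-04). The annotated gene Gm20547 covers 6107 bases of Cfb on the same strand and also overlaps C2, so reads there may be shared or left uncounted.

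C4b, the mouse gene for complement C4, was the least abundant member per length, at 1.98 ± 0.416 CPM per kb with R848, 3.49 ± 1.14 with IFN-α and 5.95 ± 1.43 with both (SD, n = 3). Its levels were 13.8, 9.13 and 10.9 CPM, 27.4, 15.9 and 16.5 CPM, and 32.7, 42.5 and 26.4 CPM in the same order, from 29 to 132 counts per library. The highest IFN-α library overlapped the lowest combined one. The combined group was 2.90-fold above R848 (1.54 ± 0.22, adjusted p = 1.14e-06, edgeR) and 1.67-fold above IFN-α (0.74 ± 0.21, adjusted p = 0.00538), and R848 was 1.74-fold below IFN-α (-0.80 ± 0.24, adjusted p = 0.00789). Without IFN-α replicate 1 the last difference was -0.51 (adjusted p = 0.123), and without combined replicate 2 the excess over IFN-α was 0.57 (adjusted p = 0.0549). C4b has a near-identical neighbour, C4a, so its count is uncertain; C4a was at 0.306 to 1.00 CPM on average over the groups.

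C3ar1, the C3a receptor, was at 161 ± 5.82, 255 ± 10.4 and 352 ± 12.8 CPM per kb with R848, IFN-α and both (SD, n = 3), above C5ar1 per length in each group. It was at 663.6, 704.7 and 709.0 CPM with R848, at 1049, 1118 and 1133 CPM with IFN-α, and at 1579, 1494 and 1477 CPM with both. The groups were separate and each step was wider than the spread within groups. With both agents C3ar1 was 2.19-fold above R848 (1.13 ± 0.078, adjusted p = 3.50e-13, edgeR) and 1.38-fold above IFN-α (0.46 ± 0.077, adjusted p = 1.61e-05), and R848 was 1.59-fold below IFN-α (-0.67 ± 0.078, adjusted p = 2.20e-08). With library totals alone the excess over IFN-α was 0.15 (adjusted p = 0.342).

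C5ar1, the C5a receptor, went the other way between the single agents. It was at 299.0, 269.5 and 282.1 CPM with R848, at 81.3, 77.1 and 77.2 CPM with IFN-α, and at 369.9, 367.0 and 316.2 CPM with both. The IFN-α libraries were low and close together, and both R848-containing groups lay well above them. R848 was 3.61-fold above IFN-α (1.85 ± 0.098, adjusted p = 4.07e-16, edgeR), and the combined group was 4.46-fold above IFN-α (2.16 ± 0.098, adjusted p = 2.09e-17). Against R848 the combined group was 1.23-fold higher (0.30 ± 0.089, adjusted p = 0.00745), but this turned to -0.079 (adjusted p = 0.615) with library totals alone and was 0.17 (adjusted p = 0.120) with upper-quartile factors.

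The balance of both peptide receptors differed by treatment. Per length, the ratio of C3ar1 to C5ar1 was 1.46 ± 0.122 with R848, 8.37 ± 0.583 with IFN-α and 2.59 ± 0.182 with both (SD, n = 3; exact p = 0.00357, adjusted 0.00536). The ratio of C3 to its peptide's receptor C3ar1 was 0.458 ± 0.037, 0.173 ± 0.031 and 0.824 ± 0.030 in the same order (exact p = 0.00357, adjusted 0.00536). No library of one group reached into another for either ratio. Both ratios were chosen after the data were seen. C3 and C5ar1 had already gone opposite to C3ar1 between the single agents, so the p-values are a description only.

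Serping1, the inhibitor, rose with both agents. It was at 14.4, 7.56 and 10.0 CPM with R848, at 20.4, 18.0 and 17.7 CPM with IFN-α, and at 41.6, 55.4 and 61.0 CPM with both, from 24 to 305 counts per library. The combined libraries were all above the others, and the R848 libraries were the lowest. With both agents Serping1 was 4.95-fold above R848 (2.31 ± 0.19, adjusted p = 2.04e-11, edgeR) and 2.85-fold above IFN-α (1.51 ± 0.18, adjusted p = 4.94e-08), and R848 was 1.74-fold below IFN-α (-0.80 ± 0.22, adjusted p = 0.00457). Its combined calls held in all 20 alternative settings.

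The combined mean was also set beside the sum of both single-agent means. This is a description, because without untreated cells the basal level is counted once in each single-agent mean and additivity cannot be tested. The quotient was 2.47 for C3, with 2.21 to 2.78 from the extreme libraries, 2.32 for Cfb (1.98 to 3.01) and 1.79 for Serping1 (1.2 to 2.41). It was 1.09 for C4b (0.641 to 1.70), 0.969 for C5ar1 (0.831 to 1.07) and 0.846 for C3ar1 (0.802 to 0.922). The C1q chains were at 0.462 for C1qa, 0.573 for C1qb and 0.470 for C1qc. With library totals alone C3, Cfb and Serping1 were still above 1, at 1.93, 1.84 and 1.42.

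**Figure D4:**
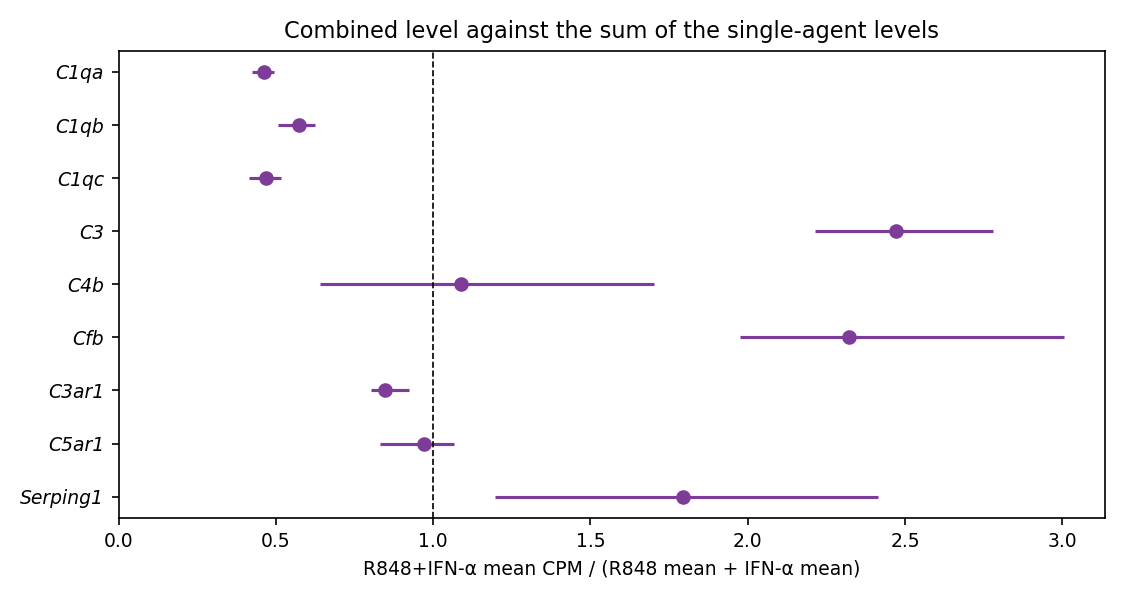
Combined mean CPM divided by the sum of the R848 and IFN-α means for each member. Bars span the lowest combined library over the highest sum to the highest over the lowest, and the dashed line marks 1; C3, Cfb and Serping1 lie to its right (2.47, 2.32 and 1.79) with bars that do not reach it.

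Of 50 other listed complement genes, all were in the files and 24 were tested, among them 7 of 16 classical and lectin activation genes, 1 of 9 alternative and terminal genes, 7 of 9 other receptors and 9 of 16 regulators. Cfd and Cr2 were among several listed genes with no counts in any group. With R848 against IFN-α, 3 of the 24 were higher and 6 lower, beside 18.4% and 19% of all genes. With both agents against R848, 7 were higher and 1 lower, beside 19.2% and 16.7%, and with both against IFN-α, 5 were higher and 4 lower, beside 18.5% and 14.7%. Of the 24, 12 differed among the groups, a share close to the 50.3% of all genes. C1ra, C1s1, C1s2 and Clu, 4 of the 24, were above both single agents, beside 7.33% of all genes.

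C1ra and C1s1, which encode mouse forms of the proteases that C1q carries, were mainly seen with both agents. C1s1 was at 7.78, 11.3 and 12.4 CPM with R848, at 6.55, 6.49 and 5.06 CPM with IFN-α, and at 39.0, 56.7 and 31.8 CPM with both. The combined group was 1.98 ± 0.21 above R848 on the log2 scale (adjusted p = 5.12e-09, edgeR) and 2.78 ± 0.24 above IFN-α (adjusted p = 8.61e-11). Its excess with R848 over IFN-α was 0.80 ± 0.29 (adjusted p = 0.0309) and was lost without IFN-α replicate 3 (adjusted p = 0.127) or R848 replicate 3 (adjusted p = 0.121), among other settings. C1ra was at 5.47, 5.04 and 4.13 CPM, at 6.17, 7.57 and 2.85 CPM, and at 20.8, 25.8 and 15.2 CPM in the same order, 2.02 ± 0.27 above R848 (adjusted p = 5.26e-07) and 1.87 ± 0.28 above IFN-α (adjusted p = 2.94e-06). C1s2, at a mean of 5.58 CPM with both agents, was higher by 2.17 ± 0.52 and 2.34 ± 0.56 (adjusted p = 0.00141 for each). With 1, 8 and 0 counts in the IFN-α libraries, its difference from IFN-α ran from 1.70 without IFN-α replicate 3 to 4.71 without IFN-α replicate 2. C1ra, C1s1 and C1s2 have near-identical copies, and C1s1 overlaps the antisense gene Gm16567, so their counts are uncertain. The per-length ratio of C1s1 to Serping1, protease to inhibitor, was 0.811 ± 0.368, 0.239 ± 0.028 and 0.615 ± 0.199 (exact p = 0.0357, adjusted 0.0357), and the call was lost in 7 of the 9 tests that each left out a library. This ratio too was chosen after the data were seen, so its p-value is a description only.

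**Figure D5:**
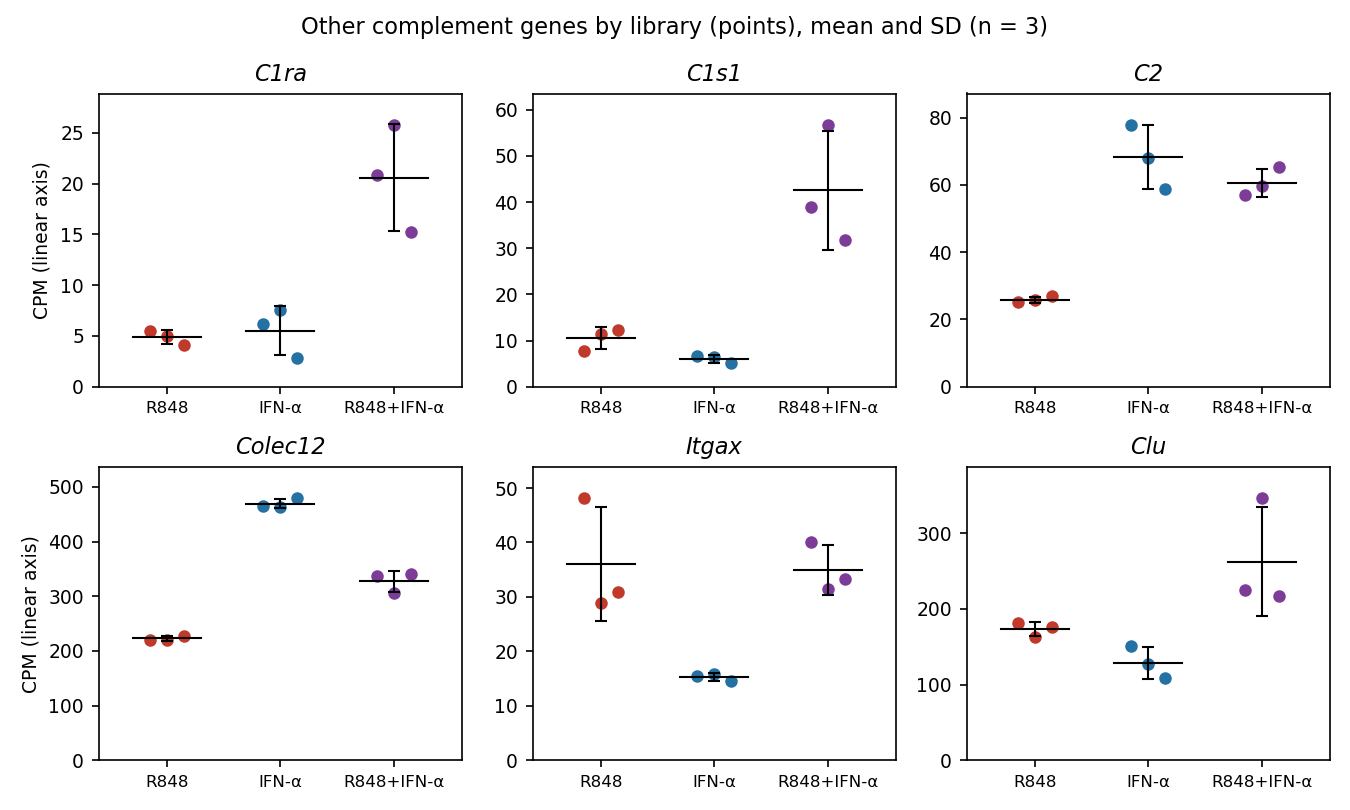
Level of 6 other complement genes in CPM on linear axes from 0, with the 3 libraries of each group as points, the mean as a line and the SD as error bars. C1ra and C1s1 are high with both agents, C2 and Colec12 are lower with R848 than with IFN-α, and Itgax and Clu are lowest with IFN-α.

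Of the 7 tested classical and lectin activation genes, 3 were higher with IFN-α than with R848, namely C2, Colec12 and Masp1. C1s1 was higher with R848, and 3 were not called. C2, whose product forms the classical C3 convertase with C4, was at 25.9 ± 0.886 CPM with R848, 68.3 ± 9.50 with IFN-α and 60.6 ± 4.25 with both (SD, n = 3), with a log2 fold change of -1.39 ± 0.14 for R848 against IFN-α (adjusted p = 7.74e-10, edgeR) and 1.23 ± 0.14 higher with both than with R848 (adjusted p = 1.29e-08). Colec12, a collectin, was at 222.8 ± 4.43, 469.2 ± 8.40 and 327.5 ± 19.4 CPM, the same order of groups as the C1q chains; its excess with both agents over R848, 0.56 ± 0.084 (adjusted p = 3.03e-06), was 0.17 (adjusted p = 0.267) with library totals alone. Masp1, a lectin pathway protease, was at only 1.94 ± 1.45 CPM with R848 and 7.08 ± 1.14 with IFN-α (log2 fold change -1.87 ± 0.43, adjusted p = 6.67e-04), and its deficit with both agents against IFN-α was -1.12 ± 0.39 (adjusted p = 0.0255), a call lost in DESeq2's Wald test (adjusted p = 0.0943) and without IFN-α replicate 2 (adjusted p = 0.109).

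Among receptors and regulators, Itgax, a chain of complement receptor 4, was lower with IFN-α than in either other group. It was at 36.0 ± 10.5 CPM with R848, 15.3 ± 0.661 with IFN-α and 34.9 ± 4.63 with both (SD, n = 3), 1.24 ± 0.19 above IFN-α with R848 (adjusted p = 3.21e-06, edgeR) and 1.19 ± 0.19 above it with both (adjusted p = 1.11e-05). Lrp1, a receptor that takes up many ligands, was -0.69 ± 0.19 with R848 against IFN-α (adjusted p = 0.00551), and that p became 0.0609 without IFN-α replicate 1. Clu, or clusterin, a fluid-phase inhibitor of the terminal pathway, was at 173.3, 128.8 and 262.5 CPM on average with R848, IFN-α and both, 0.59 ± 0.16 above R848 (adjusted p = 0.00769) and 1.02 ± 0.16 above IFN-α (adjusted p = 1.10e-04). The excess of Clu over R848 was lost with library totals alone (adjusted p = 0.231) and without R848 replicate 1 (adjusted p = 0.130). Cd93 was lower than with IFN-α with R848 and with both agents, at log2 fold changes of -0.37 ± 0.13 and -0.48 ± 0.13 (adjusted p = 0.0267 and 0.00573), and the first of these calls was lost in 6 of 20 alternative settings, library totals alone (adjusted p = 0.145) and leaving out R848 replicate 2 (adjusted p = 0.0894) or IFN-α replicate 1 (adjusted p = 0.0740) or 2 (adjusted p = 0.0684) among them. C1qbp was the 1 gene lower with both agents than with R848 (-0.41 ± 0.15, adjusted p = 0.0304). That call was lost in DESeq2's Wald test (adjusted p = 0.116), without R848 replicate 1 (adjusted p = 0.124) and without combined replicate 2 (adjusted p = 0.105) or 3 (adjusted p = 0.143). Cd93 and C1qbp are named after their values were seen.

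Several astrocyte markers also differed between the groups. Of 10 tested, 9 were higher and 0 lower with both agents than with R848, beside 19.2% and 16.7% of all genes. With both agents against IFN-α, 5 were higher and 0 lower, beside 18.5% and 14.7%. With R848 against IFN-α, 2 were higher and 4 lower, beside 18.4% and 19%. Within the combined group replicate 2 had the highest astrocyte sum, 3430 CPM against 2559 and 2386, and it was also the highest library for C3, C4b, C1ra, C1s1 and Clu. C3, at 1513, 1532 and 1434 CPM, had the same order over those libraries as the astrocyte sum, with a narrower spread. The IFN-α libraries also shared an order, while in the R848 libraries C3 fell as the astrocyte sum rose. In the combined group Cfb and Serping1 were highest in replicate 3, where the astrocyte sum was lowest. Every C1q chain was lowest in replicate 2 of that group. With 3 libraries in a group, these orders are a description only. Aqp4, a water channel of astrocytes, was the tested marker with the largest fold change in both comparisons. It was 2.12-fold higher with both agents than with R848 (adjusted p = 4.50e-04, edgeR) and 3.74-fold higher than with IFN-α (adjusted p = 6.46e-06). Against IFN-α, S100b, Gja1, Sox9, Aldh1l1 and Fgfr3 were not called with both agents. There the fold changes of Gja1, Sox9, Aldh1l1 and Fgfr3 were 0.97, 0.94, 0.73 and 0.73. The part of astrocyte transcripts in the complement results was not tested.

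The members' patterns were last set beside those of 9730 genes with a mean of at least 5 CPM, by Pearson's r of log2 CPM over the 9 libraries. These libraries form 3 groups, so an r near 1 mainly says that group means line up, and it is given as a description. C1qa was most like C1qc (0.989), Ap1b1 and Ppp2r4, C1qb most like 1600014C10Rik (0.993), P2ry14 and AB124611, and the genes most like C1qc included Lgals3 (0.993) and C1qa (0.989). C3 was most like Rapgef2 (0.998), Il1rn (0.994), which encodes the interleukin-1 receptor antagonist, and Trim35. Il1rn was at 473.9 ± 31.5 CPM with R848, 245.9 ± 14.9 with IFN-α and 4959 ± 423 with both (SD, n = 3). C4b was most like Asap3 (0.961), Tgif1 and Stat3, and Cfb most like Bambi-ps1 (0.992), Myd88 (0.992), the adaptor of most Toll-like receptors, and H2-Q4. C3ar1 was most like B2m (0.995), the light chain of class I molecules, Zc3h7a and Clec2d, and B2m was at 1361 ± 45.8, 2238 ± 81.5 and 2991 ± 245 CPM. C5ar1 was most like the chemokine genes Ccl3 (0.997) and Cxcl16, with Fam167a next, and Ccl3 was at 4249 ± 273, 142 ± 16.0 and 7248 ± 658 CPM. Serping1 was most like Apaf1 (0.986), Tgm2 and Socs1, a suppressor of cytokine signalling. Between members, Cfb and Serping1 had an r of 0.961 and C4b and Serping1 one of 0.916, while C1qa and C5ar1 had an r of -0.829.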

How the data were processed

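The deposited files gave whole-number counts per gene for 9 libraries, unstranded and for each strand, which the authors had not normalized. Per the submitters' processing notes, CASAVA 1.8.2, Trimmomatic 0.33, STAR 2.5.1 and DESeq2 were used upstream with mm10; for the annotation, none is given in the sources used here. Per the labels, ribosomal RNA was removed and a directional kit used, and reverse-strand counts were taken, since forward-strand counts were 1.09 to 1.5% of both. Reads that STAR maps to several places are left out of such counts, so genes with near copies are uncertain. Rows that name no gene, of which reads in no annotated gene made up 39.3 to 44.4%, were kept out of totals and tests. The ribosomal transcript Rn45s held 13.3 to 26.1% of gene counts.

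In R 4.3.3, edgeR 4.0.16 (which uses limma 3.58.1) filtered genes by filterByExpr per group at a minimum count of 10 and total of 15, scaled libraries by TMM and fitted 3 group means over 9 libraries, with 6 residual degrees of freedom and a biological coefficient of variation of 0.0955. Benjamini-Hochberg adjustment ran over all 11002 genes, and calls were made at an adjusted p under 0.05. Each SE was derived from the log2 fold change and its F statistic and is approximate. Alternatives were other scalings, DESeq2 1.42.0, limma-voom, other filters, unstranded counts, a 6-library fit, a replicate block and leaving out each library. Exon lengths and positions are from GENCODE on GRCm38. Depth limits the precision of members under 100 counts per library. Replicates differed by more than counting noise, with chi-square per degree of freedom of 1.92 to 6.27.

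The members and lists were chosen with earlier results of these data known. The rule for names gave all 9 members, up to 6 called genes of the other complement list per comparison by absolute log2 fold change, and for each member the 3 genes with the highest correlation. A few genes that the rule or the lists hold are not reported here by name, although counts over the lists include them.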

Additional observations from a re-analysis of the deposited data

Results flagged for a closer look

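The forward-strand column was not used in the comparisons above, and 4 members had more than 3 forward-strand counts in every library of a group. C1qb had 32 such counts over the IFN-α group and 22 over the combined group, C1qc had 33 with IFN-α, and C3ar1 had 42 with IFN-α and 51 with both. These were 0.303 to 0.493% of the counts of both strands for those genes, below the 1.09 to 1.5% found over whole libraries. Cfb had 24 forward-strand counts with R848, which were 11.9% of both strands there, 6.04% with IFN-α and 2.28% with both, above the share of whole libraries in each group. With unstranded counts in place of reverse-strand ones every call of Cfb was kept.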

How the results depend on the processing

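Of 540 member values under 20 alternative settings, 514 kept their direction and side of the threshold, 24 kept only the direction and 2 reversed. The reversals, C1qa at -0.15 and C5ar1 at -0.079 against R848 in the combined group, came with library totals alone. That setting moved the median of all genes to -0.42 against R848 and -0.32 against IFN-α, and relative to this median C1qa was at 0.27 and C5ar1 at 0.34. It also moved members above both single agents from 6 to 3, other complement genes higher than with R848 from 7 to 4 and lower from 1 to 8, and those lower than with IFN-α from 4 to 8. All genes called in the combined group went from 2110 to 1176 higher and from 1835 to 4976 lower against R848, and from 2034 to 1045 higher and from 1618 to 3759 lower against IFN-α. Against R848, upper-quartile factors gave 2861 genes lower, with a median of -0.17, and 2 other complement genes lower, and DESeq2's Wald test gave 1198 and 0. Leaving out a library gave 1 to 3 other complement genes higher with R848 than with IFN-α, and 0 to 2 lower with both agents than with R848. The causes were not tested.

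Replicate numbers did not pair the libraries: deviations of same-numbered libraries correlated at -0.101 to 0.0587 over 9 pairs, and 0 of 9 libraries were closest to their own number. With the replicate block, members lower with both agents than with IFN-α went from 3 to 2, C1qb being lost (adjusted p = 0.0550), and all-gene counts were 2036 and 2111, 2142 and 1853, and 2077 and 1624, higher and lower, in the order of the comparisons.

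Depth limits C4b and Serping1 most, with as few as 29 and 24 counts in a library.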
